A study of Mus musculus with 3 samples.

Results

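Annexins and S100 proteins were represented by 10 of the 15554 genes in the table of NIH3T3 transcriptomes, 6 annexin genes (*Anxa1*, *Anxa2*, *Anxa3*, *Anxa5*, *Anxa6* and *Anxa8*) and 4 S100 genes (*S100a4*, *S100a6*, *S100a10* and *S100a11*). They were taken by gene symbol, and the list was chosen from members of both families with their expression in these same libraries already known, so their values are given as a description. NIH3T3 is a long-established fibroblast line from mouse embryos. By the methods given for stimulating this line, the cells first spent 24 h in serum-free medium alone. They were then kept in fresh serum-free medium for another 24 h with no stimulation (CTRL), with 100 ng/mL of GDF15 or with 4 ng/mL of TGF-β. Serum-free medium was common to all groups, and the line is a single established line, so no primary or cancer-associated fibroblast was sampled. RNA of 3 samples was pooled within each treatment before a single stranded mRNA library was made, and each value below is therefore 1 number per treatment, without a replicate, a standard deviation or a p-value.

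Annexins are soluble proteins that bind phosphatidylserine and other acidic membrane lipids when calcium is high, and they act in membrane repair, vesicle traffic and the linkage of actin to membranes. S100 proteins are small dimeric calcium sensors of the EF-hand type, which change shape on calcium binding and then attach to target proteins. Both families meet in complexes, because an S100A10 dimer holds a pair of annexin A2 molecules at the plasma membrane, where the complex also binds plasminogen, and S100A11 binds the amino-terminal end of annexin A1. S100A4 is widely used as a fibroblast marker and binds non-muscle myosin, and annexin A5 is the protein used to stain exposed phosphatidylserine on dying cells.

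The sequences upstream of 4 start sites are shown because these genes carry the contrasts described below: *Anxa8* had the largest difference, *S100a4* was the most abundant and was lower, *S100a11* was the S100 gene that was higher with TGF-β than in CTRL, and *Anxa2* was the most abundant annexin gene. Each is the stretch of 250 bases before the RefSeq start site (GRCm38.p6), written 5′ to 3′ along the strand of the gene, and the capitals mark matches, on either strand, to the motifs searched.
*Anxa8* (chr14:34085729-34085978, plus strand): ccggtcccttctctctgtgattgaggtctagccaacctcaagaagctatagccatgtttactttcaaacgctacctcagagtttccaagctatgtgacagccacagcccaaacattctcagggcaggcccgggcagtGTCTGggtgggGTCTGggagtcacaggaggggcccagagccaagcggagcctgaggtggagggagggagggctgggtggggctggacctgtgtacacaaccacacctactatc
*Anxa2* (chr9:69453433-69453682, plus strand): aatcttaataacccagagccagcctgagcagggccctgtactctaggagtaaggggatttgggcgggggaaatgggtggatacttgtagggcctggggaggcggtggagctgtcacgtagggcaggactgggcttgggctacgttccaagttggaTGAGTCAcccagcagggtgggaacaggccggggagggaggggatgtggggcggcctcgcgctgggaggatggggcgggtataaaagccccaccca
*S100a4* (chr3:90603520-90603769, plus strand): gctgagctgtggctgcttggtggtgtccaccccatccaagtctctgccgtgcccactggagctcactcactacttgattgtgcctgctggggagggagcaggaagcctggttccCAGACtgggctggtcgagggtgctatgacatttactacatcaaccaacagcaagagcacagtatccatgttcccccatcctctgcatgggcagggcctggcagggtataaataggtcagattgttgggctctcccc
*S100a11* (chr3:93520246-93520495, plus strand): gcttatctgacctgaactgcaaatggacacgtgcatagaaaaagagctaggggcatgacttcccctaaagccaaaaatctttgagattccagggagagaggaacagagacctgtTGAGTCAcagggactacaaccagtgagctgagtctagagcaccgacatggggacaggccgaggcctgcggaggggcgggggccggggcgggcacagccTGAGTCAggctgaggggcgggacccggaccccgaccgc
The motifs were the SMAD motif CAGAC, the AP-1 motif TGANTCA and the TEAD motif GGAATG, chosen after the expression values were known, and no 2 of them overlapped in these windows. A SMAD match was found in 42.2% of the 32851 upstream windows of the same length, an AP-1 match in 6.75% and a TEAD match in 12.6%. The *Anxa8* window held the SMAD letters at -113 and -102 from the start site, and the *S100a4* window held them once, at -136. The AP-1 letters were present once in the *Anxa2* window, at -95, and in the *S100a11* window at -136 and -38. Windows were found for 7 of the 10 genes. Of the windows not shown, *S100a6* had the SMAD letters at -136, *Anxa5* had them at -195 and -102, and *Anxa1* had the TEAD letters at -236. A match describes the letters only.

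The values are FPKM, counts of sequenced fragments scaled by the authors to transcript length and library size, with sums of 331179 (CTRL), 306603 (GDF15) and 310599 (TGF-β). Low FPKM rise in steps of a single fragment, from which depths of 18.6, 21.6 and 17.7 (in units of 1e6 fragments) were estimated for CTRL, GDF15 and TGF-β. The steps were sharper when a fragment length was taken off the length of the transcript than with its full length. At these depths the least abundant of the 10 genes, *Anxa3*, corresponded to an estimated 924 fragments in CTRL, and the standard error of a log2 change from counting alone was between 0.0150 and 0.0601 over the 10 genes. The absence of replicates is a limit on these values that the counting error does not cover. Of the fibroblast markers, all 7 were above an FPKM of 1, with *Col1a1* at 1103, 1669 and 1902 and *Vim* at 2245, 2018 and 1700 in the order CTRL, GDF15 and TGF-β. The summed FPKM of 8 epithelial markers was at most 0.970 in any library and that of 3 endothelial markers at most 0.175, with *Epcam* and *Perp* listed at 0 throughout. The 6 blood cell markers summed to between 1.51 and 2.96, of which *Cd68* made up the larger part, and *S100a9* and *Emr1* were listed at 0.

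The S100 genes *S100a4* and *S100a6* were the most abundant of the group. FPKM is a level per length of transcript, so genes can be set side by side. *S100a4* had the 2nd highest FPKM of all 15554 genes in CTRL, and *S100a6* the 10th. The annexin genes followed, with *Anxa2* in 60th and *Anxa1* in 98th place in CTRL, close to *S100a11* (100th) and *S100a10* (105th). The order of levels in CTRL was then *Anxa5*, *Anxa6*, *Anxa8* and *Anxa3*, the last in 1677th place. Neighbours in this order could not be separated beyond a spread, because none was measured, and *Anxa1*, *S100a11* and *S100a10* lay within 399 to 414 FPKM in CTRL. The 4 S100 genes together took 1.99% of all FPKM in CTRL, 1.54% with GDF15 and 1.73% with TGF-β. The 6 annexin genes took 0.416%, 0.472% and 0.525%. The level of a short transcript depends on the length used to divide it. If the lengths were shortened as estimated, division by full length would put *S100a4* in CTRL at 2292 and *S100a6* at 1438 in place of 3817 and 1976, and *Anxa2* at 543 in place of 629.

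**Figure D1:**
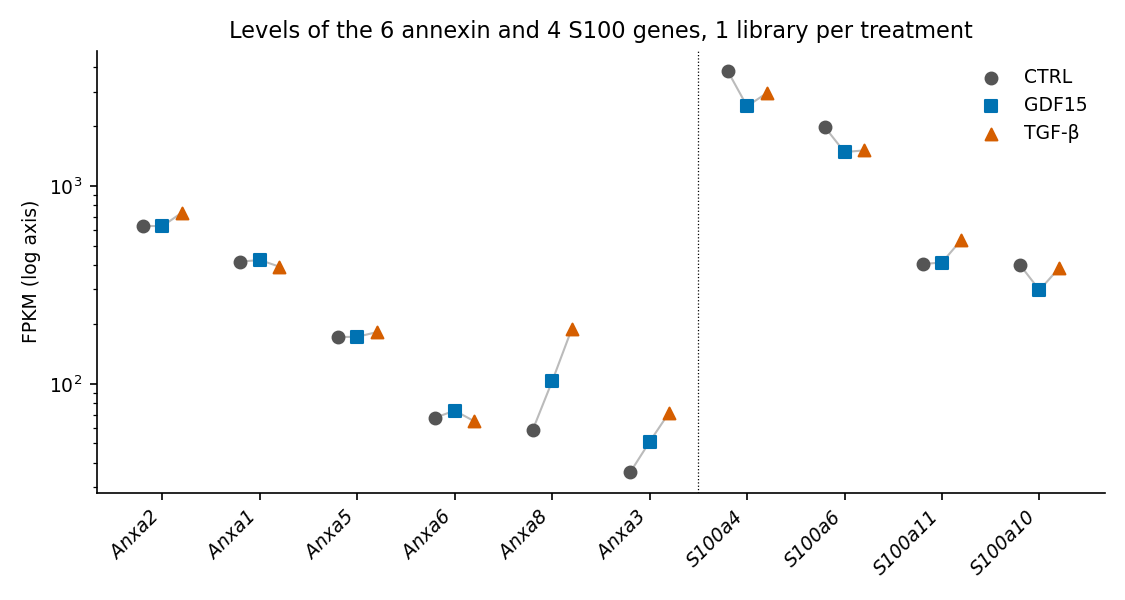
FPKM on a log axis of the 6 annexin genes (left) and the 4 S100 genes (right) in the CTRL, GDF15 and TGF-β libraries, each point 1 pooled library with no error bar, and grey lines joining the libraries of a gene. *Anxa8* and *Anxa3* step up from CTRL to GDF15 to TGF-β, *S100a4* and *S100a6* are highest in CTRL, and *S100a10* is lowest in GDF15.

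*Anxa8* and *Anxa3* were the annexin genes that differed most between the libraries. *Anxa8*, which encodes annexin A8, a protein linked to late endosomes, was at 58.4 in CTRL, 103 with GDF15 and 189 with TGF-β. The level in TGF-β was the highest and that in GDF15 lay in between, so that *Anxa8* passed from 922nd place in CTRL to 415th in GDF15 and 241st in TGF-β. Against CTRL the ratio was 1.77 for GDF15 and 3.23 for TGF-β, and TGF-β was 1.83 times GDF15. *Anxa3*, whose product annexin A3 is found on vesicles and granules, was at 35.7 in CTRL, 51.0 with GDF15 and 71.5 with TGF-β. It had the same order of libraries with smaller steps, 1.43 and 2.004 times CTRL. In such bulk RNA, more cells with a transcript and more of it per cell cannot be told apart.

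A change below is log2(FPKM + 1) of a stimulated library less that of CTRL. Both changes of a gene share the CTRL library, so they are given side by side and are not independent. For *Anxa8* this came to 0.81 with GDF15 and to 1.68 with TGF-β, and for *Anxa3* it was 0.50 and 0.98. Of the 5418 genes whose mean FPKM was 10 or more (the abundant genes), 28 had a higher change than *Anxa8* by GDF15 and 11 by TGF-β, whereas 106 and 53 were above *Anxa3*. Each change was also set against the local spread, a scaled median absolute deviation over the 250 genes on each side in rank of mean expression. For the 7 genes of the group other than *Anxa3*, *Anxa6* and *Anxa8* this was 1 common window at the upper end, of the most abundant genes of the table. Less the median of those genes, the changes of *Anxa8* were 3.22 and 6.30 times the spread, and those of *Anxa3* 2.80 and 5.42 times. This spread is one among genes and does not replace a replicate.

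A change over 2-fold was found for 0 of the 10 genes with GDF15, where 0.289% of all 15554 genes had one in either direction. With TGF-β it was found for 1 gene, *Anxa8*, against 0.579% of all genes and 0.978% of the abundant ones that were over 2-fold higher. *Anxa3* was just under this limit, at 0.98. At 1.5-fold, *Anxa8* was higher with GDF15 (0.791% of all genes and 1.26% of the abundant ones) and *S100a4* was lower (1.02% and 1.57%), at -0.59 just past the limit of 0.58. This call was lost when the libraries were scaled to a common upper quartile or by their median ratio (-0.56 with each), less the median of genes of similar expression (-0.44) and less that of genes of similar length (-0.26). With TGF-β, 2 of the 10 genes, *Anxa3* and *Anxa8*, were over 1.5-fold higher (1.65% and 2.77%) and 0 were lower (1.95% and 2.62%). The remaining 7 genes lay within 1.5-fold of CTRL in both stimulated libraries.

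**Figure D2:**
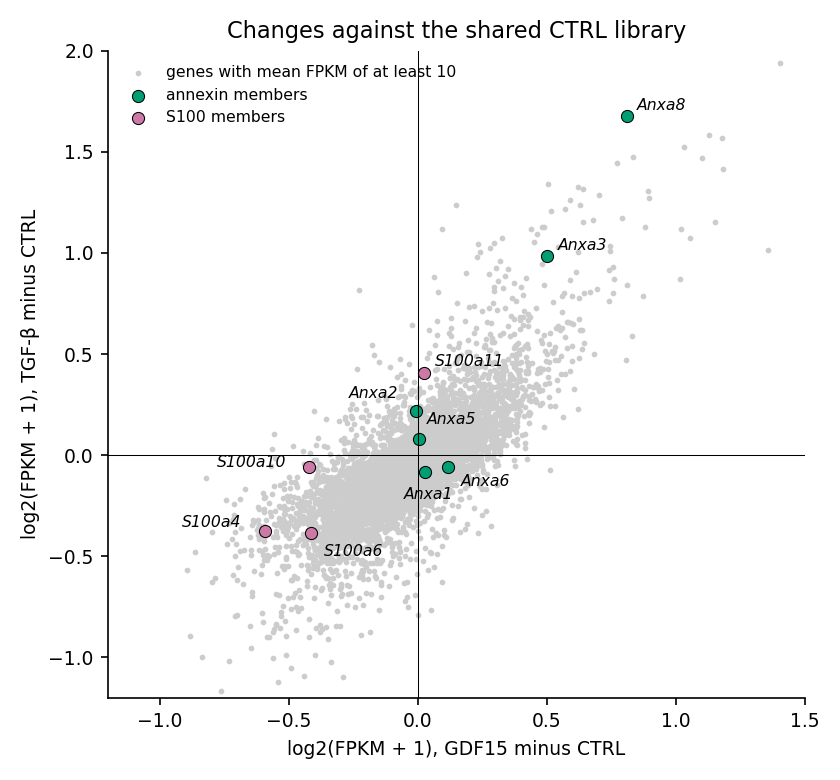
Change in log2(FPKM + 1) by GDF15 (horizontal) and by TGF-β (vertical) against the same CTRL library, for the annexin genes (green), the S100 genes (pink) and the abundant genes (grey), with axes limited so that a few grey points fall outside. *Anxa8* lies at 0.81 and 1.68 and *Anxa3* at 0.50 and 0.98, *S100a4* at -0.59 and -0.38, and the other annexin genes lie near the origin.

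The other 4 annexin genes kept close levels across the 3 libraries. *Anxa2*, the partner of S100A10, was at 629 in CTRL, 626 with GDF15 and 733 with TGF-β (changes of -0.01 and 0.22). *Anxa1*, an inhibitor of inflammation that acts through formyl peptide receptors, was at 414, 423 and 391, with TGF-β lowest (0.03 and -0.08). *Anxa5* was at 172, 173 and 183, with both changes under 0.1. *Anxa6*, which carries a doubled set of annexin repeats and is encoded by 26 exons, where the other 5 had 12 or 13, was at 67.4, 73.3 and 64.7 (0.12 and -0.06). None of these 8 changes was past 1.13 local spreads from the median of genes of similar expression, which for *Anxa1*, *Anxa2* and *Anxa5* was that of the common window of the most abundant genes. The median over the 6 annexin genes was 0.07 for GDF15 and 0.15 for TGF-β, and over the 5418 abundant genes it was -0.05 and -0.08. Their FPKM summed to 1378 in CTRL, 1448 with GDF15 and 1632 with TGF-β. The share of *Anxa8* in that sum was 4.24%, 7.12% and 11.6%, while that of *Anxa1* was 30.1%, 29.2% and 24.0%.

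Of the S100 genes, 3 were lower in GDF15 than in CTRL. *S100a4* was at 3817 in CTRL, 2529 with GDF15 and 2942 with TGF-β, with GDF15 the lowest and TGF-β between. The difference from CTRL was -0.59 for GDF15 and -0.38 for TGF-β. *S100a6*, or calcyclin, a protein of proliferating cells that binds the calcyclin-binding protein, was at 1976, 1483 and 1512. Both stimulated libraries were close to each other and lower than CTRL, with changes of -0.41 and -0.39. *S100a10*, which does not bind calcium itself, was at 399, 298 and 384. The GDF15 library was the lowest here (-0.42), and TGF-β was near CTRL (-0.06 as deposited, 0.01 and 0.03 with the other scalings of the libraries). *S100a11*, also called calgizzarin, was at 403, 410 and 536. It was at or above CTRL in both stimulated libraries, with GDF15 near CTRL (0.02) and TGF-β highest (0.41), where 280 of the 5418 abundant genes had a higher change.

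Over the 4 S100 genes the median was -0.42 with GDF15 and -0.22 with TGF-β. For transcripts as short as theirs, such values were common. The transcripts of the S100 genes measured 498 to 731 bases and those of the annexin genes 1447 to 2489 bases (longest coding transcript in GENCODE M21). The 174 abundant genes with a transcript of up to 800 bases had medians of -0.39 with GDF15 and -0.22 with TGF-β, and 165 of them were lower in GDF15 than in CTRL. Each change was then set against the 250 genes on each side in rank of length. All 4 S100 genes share the window of the shortest transcripts, 371 to 1035 bases, with medians of -0.33 for GDF15 and -0.20 for TGF-β. Within it, 58 genes had a lower change than *S100a4* by GDF15 and 178 a lower change than *S100a6*. Less that median, *S100a4* was at -0.26, *S100a6* at -0.08 and *S100a10* at -0.09 by GDF15, and at -0.17, -0.18 and 0.15 by TGF-β. With a narrower window of 50 genes on each side, chosen after the data were seen, *S100a4* was at -0.16 by GDF15 and -0.10 by TGF-β. None of the 4 was then over 1.5-fold lower with either window. The median of the 4 by TGF-β was -0.01 with the wide window and 0.02 with the narrow one, with 2 genes higher and 2 lower in the former. *S100a11* was on the other side, at 0.35 by GDF15 and 0.61 by TGF-β with the wide window, so that it passed 1.5-fold by TGF-β (0.68 with the narrow window), and 14 genes of that window had a higher change by TGF-β.

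**Figure D3:**
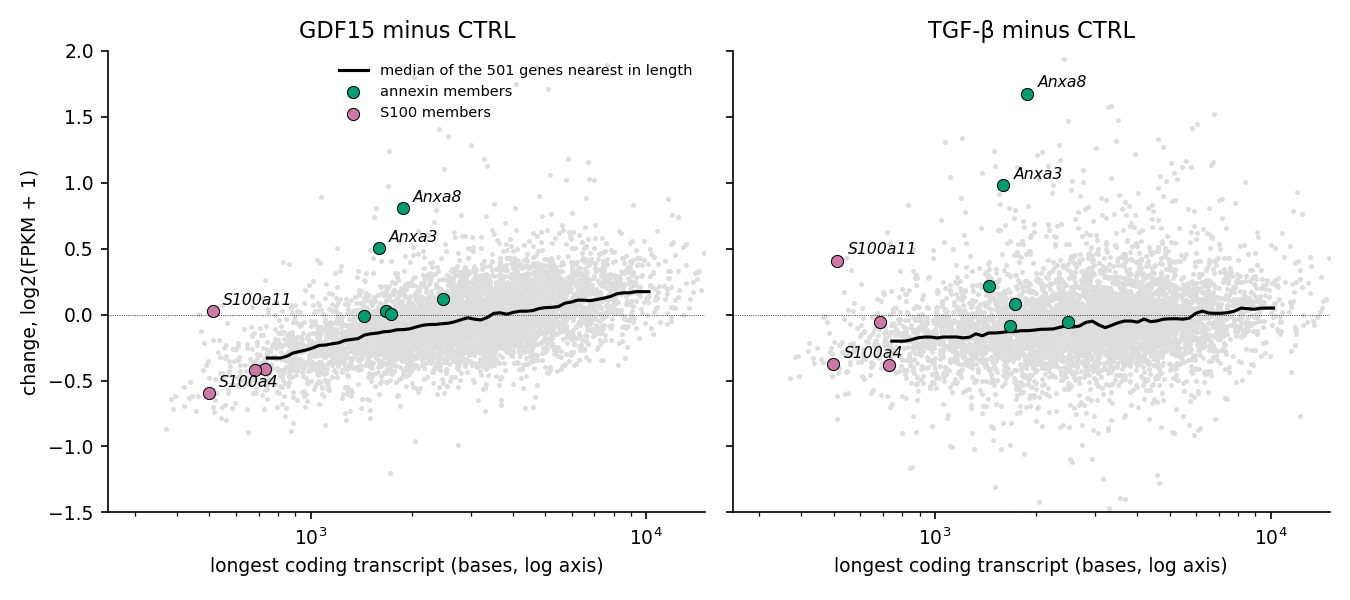
Change in log2(FPKM + 1) by GDF15 (left) and TGF-β (right) against the length of the longest coding transcript on a log axis, for the abundant genes (grey), annexin genes (green) and S100 genes (pink), with the running median of the genes nearest in length as a black line. *S100a4*, *S100a6* and *S100a10* sit near the low end of the GDF15 trend, *S100a11* lies above it in both panels, and *Anxa8* and *Anxa3* stand far above it.

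The same subtraction raised the values of the 6 annexin genes. *Anxa8* was at 0.92 by GDF15 and 1.80 by TGF-β, and 0 of the genes in its length window (1764 to 1993 bases) were higher by either stimulus. *Anxa3* was at 0.64 and 1.12, over 1.5-fold by GDF15 as well and over 2-fold by TGF-β, with 8 genes of its window higher in each case. All 6 annexin genes were then above 0 by both stimuli, with medians of 0.17 and 0.28 in place of 0.07 and 0.15, and the small values of *Anxa2* by GDF15 and of *Anxa1* and *Anxa6* by TGF-β took the other sign. The next largest was *Anxa2* by TGF-β, at 0.36, while *Anxa1* and *Anxa6* were near 0 by TGF-β, at 0.05 and 0.02. A value above 0 here is only one above the middle gene of its window, so many genes have one. The other expressed annexin genes were mostly below 0. *Anxa7* was at -0.10 by GDF15 and -0.13 by TGF-β, *Anxa11* at -0.07 and -0.06 and *Anxa9* at -0.22 and -0.09. *Anxa4* was at 0.01 and 0.08. What part transcript length had in the S100 values was not tested, since no library was repeated.

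The balance of annexins and their S100 partners differed between libraries. The ratio of *Anxa2* to *S100a10* was 1.57 in CTRL, 2.10 with GDF15 and 1.91 with TGF-β. As deposited, *S100a10* was lower and *Anxa2* nearly level with GDF15, and *Anxa2* was higher and *S100a10* nearly level with TGF-β. Less the median of genes of similar length, *S100a10* was at -0.09 and *Anxa2* at 0.15 by GDF15, and at 0.15 and 0.36 by TGF-β. The ratio of *Anxa1* to *S100a11* was 1.03 in CTRL and in GDF15 and 0.730 in TGF-β, where *S100a11* was higher and *Anxa1* near its level in CTRL (-0.08 as deposited, 0.03 less the median of genes of similar expression and 0.05 less that of genes of similar length). *S100a11* and *S100a10*, which follow each other in the S100 order of chromosome 3, were level in CTRL (ratio 1.01) and apart in GDF15 (1.38) and TGF-β (1.39). These ratios depend on the length used. Divided by full length, *S100a11* and *S100a10* would be at 246 and 283 in CTRL, 251 and 211 in GDF15 and 327 and 273 in TGF-β. The ratio of *S100a4* to *S100a6* was 1.93, 1.70 and 1.95. A ratio between an annexin and an S100 gene also carries their difference in transcript length.

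The S100 genes of this group lie on chromosome 3 of GRCm38 at 2 places. *S100a4* (90603771 to 90606045) and *S100a6* (90612882 to 90624181) start 9111 bases apart on the plus strand, and *S100a11* (93520488 to 93526287) and *S100a10* (93555080 to 93564643) start 2916717 and 2951309 bases after *S100a4*. The annexin genes are scattered, with *Anxa8* on chromosome 14 (34085981 to 34100571, plus strand) and *Anxa3* on chromosome 5 (96793339 to 96845966, plus strand). *Anxa2* is on chromosome 9 (69453620 to 69491795, plus strand), *Anxa1* on chromosome 19 (20373428 to 20390944, minus strand) and *Anxa6* on chromosome 11 (54979108 to 55033445, minus strand). *Anxa5* is on chromosome 3 as well, outside the S100 stretch (36448923 to 36475894, minus strand). The stretch from *S100a1* to *S100a10* holds 37 genes of the table, 12 S100 genes and 25 others, among them genes of the cornified envelope of skin. Mean FPKM was 1 or more for 7 of the 12 S100 genes and 10 or more for 6, against 9226 and 5418 of all 15554 genes. Of the 25 others, 0 reached 1 and 21 were listed at 0 in all 3 libraries. Expressed genes and genes near 0 alternate within a short distance. *S100a5*, between *S100a4* and *S100a6*, was listed at 0 in CTRL and GDF15 and at 0.490 in TGF-β, an estimated 2.01 fragments. *S100a3*, just upstream of *S100a4*, was at 1.47, 0.450 and 0.771, or an estimated 14.0, 4.99 and 7.0 fragments. A predicted gene, *Gm42674*, shares 302 of the 584 exon bases of *S100a4* on the same strand and is not among the rows used here, so reads of both could be counted for *S100a4*. The overlap of *Anxa3* with *Gm42603* on the same strand is small, 112 of 3643 exon bases, as is that of *Anxa2* with *Gm16144* on the other strand, 98 of 3731. *Anxa8* shares 0 exon bases with the gene that overlaps it.

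**Figure D4:**
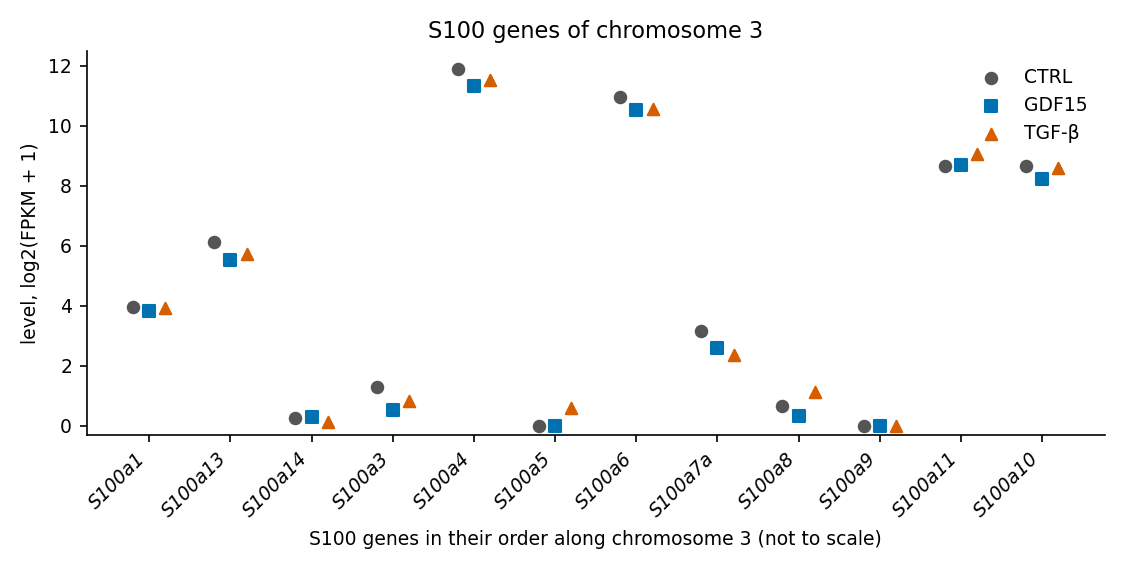
Level in log2(FPKM + 1) of the 12 S100 genes in their order along chromosome 3, with 1 point for each of the CTRL, GDF15 and TGF-β libraries and gene spacing not to scale. *S100a4* and *S100a6* are above 10, *S100a11* and *S100a10* above 8, and *S100a14*, *S100a5* and *S100a9* are near 0.

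The other annexin and S100 genes of the table, 6 and 10 in number, were taken as the rest of both families. *Anxa4*, *Anxa7* and *Anxa11* were expressed at levels like that of *Anxa6*, at 82.2, 70.9 and 58.5 FPKM in CTRL. Their changes lay between -0.18 and -0.05 by either stimulus, so that among the 10 expressed annexin genes *Anxa8* and *Anxa3* were alone over 1.5-fold higher with TGF-β. *Anxa9* was low, at 2.64, 1.88 and 2.14. *Anxa10* was listed at 0 throughout, and *Anxa13* was at 0.0541 in TGF-β only. *S100a13*, which takes part in the release of growth factors without a signal sequence, was at 68.9 in CTRL, 44.9 with GDF15 and 52.1 with TGF-β (-0.61 and -0.40). With its short transcript it was at -0.28 and -0.20 less the median at that length. *S100a7a*, a psoriasin gene of skin, was at 7.95, 5.03 and 4.06. It had the lowest change of both families by TGF-β (-0.82, and -0.65 less the median at that length), and its levels corresponded to an estimated 159, 117 and 77.7 fragments. *S100a1* was near 14 in all libraries (14.5, 13.1 and 14.2) and *S100b* near 2 (2.27, 2.73 and 2.34). *S100a8* was at 0.567, 0.243 and 1.19, an estimated 3.02, 1.51 and 6.03 fragments, and these are too few for a comparison. *S100g* was listed at 0.

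**Figure D5:**
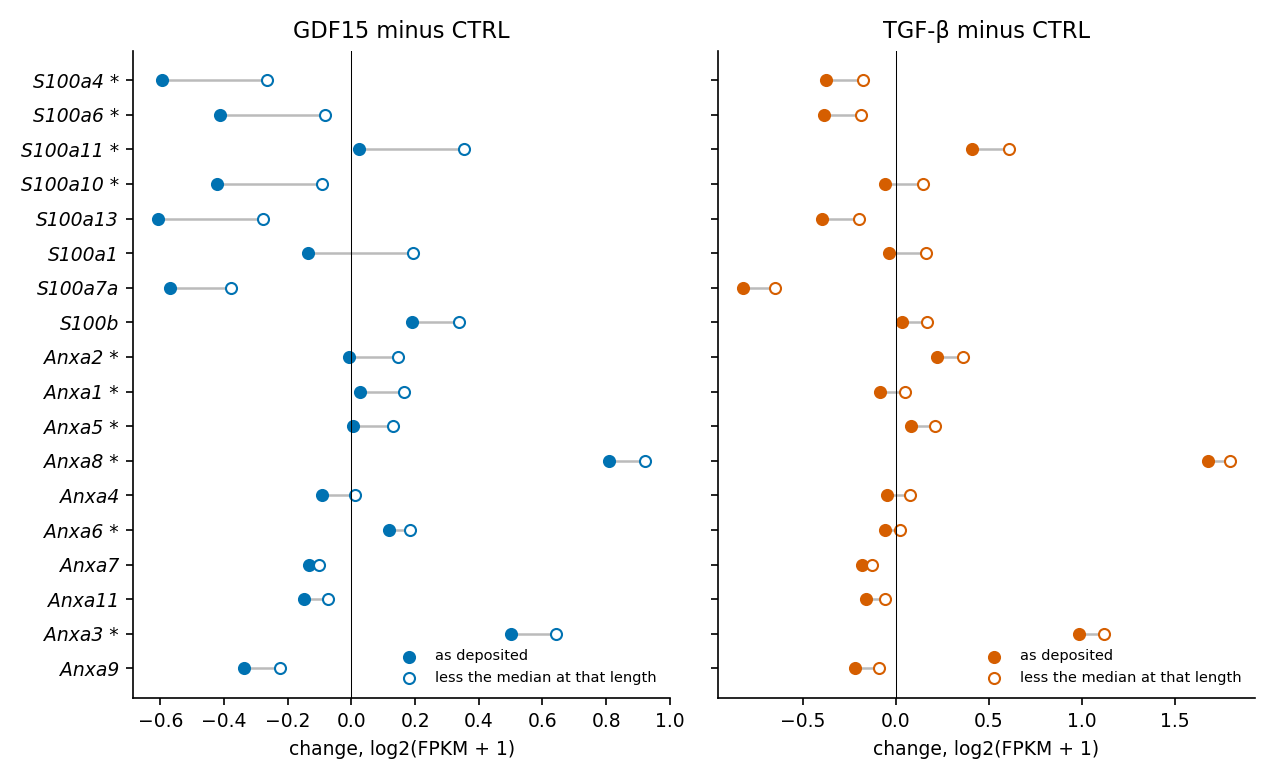
Change in log2(FPKM + 1) by GDF15 (left) and TGF-β (right) of the 18 annexin and S100 genes whose mean FPKM was 1 or more, as deposited (filled) and less the median of the genes nearest in transcript length (open), with the 10 genes of the group starred and axes that differ between panels. The open points of *S100a6* and *S100a10* by GDF15 are at -0.08 and -0.09, and that of *Anxa8* by TGF-β is at 1.80.

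Genes that work with annexins and S100 proteins were followed as lists. Counts over 1.5-fold in these short lists are read against all 15554 genes, of which 0.791% were higher and 1.02% lower with GDF15 and 1.65% higher and 1.95% lower with TGF-β, and a count of 0 is near those shares. Among 10 partners of annexins in membrane repair and binding, 0 differed over 1.5-fold from CTRL in either direction on the scale of log2(FPKM + 1), with medians of -0.09 by GDF15 and -0.04 by TGF-β. The highest mean over the libraries was that of *Ptrf*, a coat protein of caveolae (367, 310 and 303 in CTRL, GDF15 and TGF-β). *Capns1*, the small calpain subunit, was at 179, 175 and 179, and *Cav1*, the main caveolin, was below it in CTRL and above it in the stimulated libraries (146, 179 and 195, changes of 0.30 and 0.42). *Dysf*, which encodes the repair protein dysferlin, was low, at 1.2, 1.94 and 2.24, which are ratios of 1.62 and 1.87 to CTRL without the pseudocount. Of 4 genes of the plasmin system that can act at the annexin A2 complex, *Plaur*, the urokinase receptor, was at 19.7, 11.6 and 14.6 and was over 1.5-fold lower with GDF15 (-0.72), but not less the median at its length (-0.58, just inside the limit). *Plat*, tissue plasminogen activator, was at 28.9, 25.3 and 17.6 and was over 1.5-fold lower with TGF-β (-0.68, and -0.59 less the median at its length). *Plau* was at 5.57, 5.35 and 4.32, and *Plg* itself was listed at 0.

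The receptors of annexin A1, *Fpr1* and *Fpr2*, were at or near 0, with *Fpr1* at most 0.123 FPKM. *Tlr4*, a receptor of extracellular S100 proteins, was at 18.8, 23.2 and 21.4, and *Ager* was near 1 at most (1.05, 0.589 and 1.15). Of 7 intracellular targets of S100 proteins, 0 were over 1.5-fold, again near those shares, with medians of 0.12 and 0.06. *Myh9*, the non-muscle myosin heavy chain to which S100A4 binds, was at 185 in CTRL, 220 with GDF15 and 228 with TGF-β (changes of 0.25 and 0.30, or 0.12 and 0.28 less the median at its length). *Myh10*, the gene of another such heavy chain, was at 17.5, 20.2 and 16.7. *Ppfibp1*, another S100A4 target, was at 43.6, 64.4 and 61.5. The same count of 0 was found among 7 other genes for EF-hand calcium proteins. *Calu*, a calcium protein of the secretory pathway, was the most abundant in each library (165, 234 and 241). The calmodulin gene *Calm2* was at 131, 140 and 146 and *Rcn3*, for another protein of the secretory pathway, at 115, 143 and 135.

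In the plane of both changes, the 3 of 5418 abundant genes nearest to *Anxa8* were *Fam101b*, *Aldh1l2* and *Ltbp2*, at distances of 0.20, 0.23 and 0.27 on the log2 scale. *Ltbp2*, for a protein of elastic fibres, was at 19.4 in CTRL, 40.7 with GDF15 and 57.8 with TGF-β. *Fam101b* was at 5.21, 10.1 and 16.2, and *Aldh1l2*, a mitochondrial folate enzyme, at 7.25, 13.1 and 21.5. *S100a6* had the lowest change by TGF-β of the 10 genes, and its 3 nearest genes were *Parvb*, *Rpl12* and *Tmem85*, the farthest at 0.0186. The level of *Rpl12*, a ribosomal protein gene, was 871, 645 and 667 in the same order. Likeness here rests on 2 differences over 3 libraries with a common CTRL.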

How the data were processed

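The members and lists were chosen with earlier results of these data known. The deposited table holds FPKM of 15554 genes in 1 pooled library per treatment. The authors sequenced stranded mRNA libraries and calculated FPKM with Cufflinks. The submitters' processing notes name TopHat 1.3.2, Bowtie 0.12.9, Cufflinks 2.0.2 and mm10. The annotation and the use of strand in counting are not given in the sources used here. FPKM were used as deposited, and changes are differences of log2(FPKM + 1) from CTRL with no filter. No test was made. Local medians and spreads (1.4826 times the median absolute deviation) were taken over the 250 genes on each side in rank of mean expression, or of transcript length among 9193 genes whose mean FPKM was 1 or more. Gene models were those of GENCODE M21 (GRCm38) and can differ from the ones behind the FPKM, with 14729 genes matched by symbol, 748 by an older symbol and 77 not matched. Columns were matched to samples by the treatment in each header. Depth was estimated from the steps of low FPKM where a gene has 1 coding transcript, with 200 bases less 1 taken off its length. The scripts for windows and depth were tested on simulated data. The error of the length trend was checked there over the central lengths only, which leaves out transcripts as short as those of the S100 genes. The simulation of depth used no transcript length, so the bases taken off were not tested by it. The genes named are all members, other family genes at a mean FPKM of 1 or more and list genes over 1.5-fold or among the most abundant. Genes named beyond this rule, such as those low or at 0, *Cav1*, *Dysf*, *Plau*, *Myh10* and *Rcn3* among them, were chosen after their values were seen. *Ahnak* and *Plgrkt* were not analysed here. Alternatives were other pseudocounts, a minimum FPKM, scalings and removal of trends. Scripts ran in Python 3.11.15 (matplotlib 3.10.9, scipy 1.17.1, pandas 2.3.3, numpy 2.4.6).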

Additional observations from a re-analysis of the deposited data

How the results depend on the processing

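No paired analysis was possible because there was a single pooled library per treatment, and leaving out a library was not possible either. Values of genes and medians are said to have moved when the shift exceeded the local spread, and counts when they changed by a factor of over 1.5. Medians were judged by the spread of single genes, so one that stayed can still have shifted, as that of the S100 genes by TGF-β did. Of 72 values of 8 group results under 8 other settings and 1 chosen after seeing the data (the narrower length window), 63 stayed and 9 moved. The number of genes over 1.5-fold lower with GDF15 was 0 in place of 1 with either scaling and after removal of the trend with expression or, with either window, length. *S100a4*, the 1 gene past this limit, lay close to it. After removal of the length trend, the number over 1.5-fold higher with GDF15 was 2 with either window, and the median of the S100 genes by GDF15 was -0.0890, or -0.0704 with the narrower window. The number over 1.5-fold higher with TGF-β was then 3 in place of 2, with *S100a11* added. The share of all genes past 1.5-fold after this removal is not given, so these counts cannot be read against a background. The median of the S100 genes by TGF-β, -0.22 as deposited, was -0.15 and -0.13 with the scalings, -0.10 less the expression trend, -0.01 less the length trend and 0.02 with the narrower window, where it took the other sign. The cause was not tested. Of 324 values of single genes, 308 stayed, 16 moved, all of S100 genes under removal of the length trend, and none of the changes over 1.5-fold took the other sign. A total of 31 values of 6 genes did, all of changes no larger than 0.14 as deposited (*Anxa1*, *Anxa2*, *Anxa4*, *Anxa6*, *S100a1* and *S100a10*), and *S100a1* by GDF15 went from -0.14 to 0.19 when the length trend was removed, or 0.22 with the narrower window. *Anxa8* stayed between 0.81 and 0.92 by GDF15 and between 1.68 and 1.80 by TGF-β, and *Anxa3* passed 2-fold by TGF-β under every alternative but a pseudocount of 0.5 and the minimum FPKM.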
